A study of Caenorhabditis elegans with 4 samples.

Results

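The collagen genes *sqt-1*, *sqt-3*, *rol-6*, *dpy-4*, *dpy-5*, *dpy-13*, *dpy-14*, *dpy-17*, *bli-1* and *bli-2* build the *Caenorhabditis elegans* cuticle and set body shape or the struts of the adult cuticle. They were taken by locus tag and are 10 of the 21895 genes in the count table. RNA was sequenced from whole worms of the wild-type Bristol N2 strain, in 2 libraries from worms shaken for 24 h in M9 buffer with 0.25 mg/mL Cyclo(Pro-Tyr), a ring made of the amino acids proline and tyrosine, and 2 libraries from worms kept the same way with its solvent DMSO. No group carried a mutation or transgene. Each library came from a pellet of many worms that had been synchronised by bleaching. The stage is given in the sources only as embryos or first-stage (L1) larvae, and nothing says whether replicates were separate cultures. All p-values therefore measure the spread between these libraries, which may be technical. The comparison asks how exposure to the compound bears on the expression of these genes.

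The cuticle is an extracellular coat that the epidermis secretes before hatching and replaces at each larval moult. Its collagens are short triple-helical proteins that are hydroxylated and folded in the endoplasmic reticulum, cut by proteases and cross-linked through tyrosines outside the cell. Mutations give the genes their names, with short fat animals for dumpy (*dpy*), helically twisted ones for roller (*rol*), short ones for squat (*sqt*), some alleles of which also make worms roll, and fluid-filled swellings of the adult cuticle for blister (*bli*). SQT-3, DPY-14 and DPY-17 are made in the embryo for the first larval cuticle, SQT-3 and DPY-17 at later moults as well. SQT-1, ROL-6, DPY-4, DPY-5 and DPY-13 serve the cuticles made at later moults. BLI-1 and BLI-2 form the struts that join the layers of the adult cuticle.

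Levels are given as CPM, the count relative to library size, scaled by the trimmed mean of M-values (TMM). Genes are compared with each other as CPM per kb of exon, except where summed counts are set against each other. Exposed and control worms alike held much of the message of 3 of the 10 collagens and little of the other 7. Per kb, *dpy-14* averaged 467 ± 252 CPM per kb in Cyclo(Pro-Tyr) and 1297 ± 208 CPM per kb in DMSO (mean ± SD, n = 2 libraries, as for all means here). For *dpy-17* the means were 419 ± 244 CPM per kb in Cyclo(Pro-Tyr) and 1235 ± 205 CPM per kb in DMSO. For *sqt-3* they were 179 ± 127 CPM per kb in Cyclo(Pro-Tyr) and 525 ± 70.2 CPM per kb in DMSO. The spreads of *dpy-14* and *dpy-17* overlapped in both groups. Within each of the 4 libraries *dpy-17* lay below *dpy-14*, and *sqt-3* lay below both genes.

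Among 164 tested collagens, made up of the numbered *col* genes, the annular furrow collagens and those named for body shape, *dpy-14* and *dpy-17* ranked 1 and 2 per kb in both groups. There *sqt-3* ranked 11 in Cyclo(Pro-Tyr) and 7 in DMSO. Among all 19427 tested genes with an annotated length, *dpy-14* stood at rank 239 in Cyclo(Pro-Tyr) and at rank 107 in DMSO. These 3 genes were grouped as abundant after their levels had been seen.

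**Figure D1:**
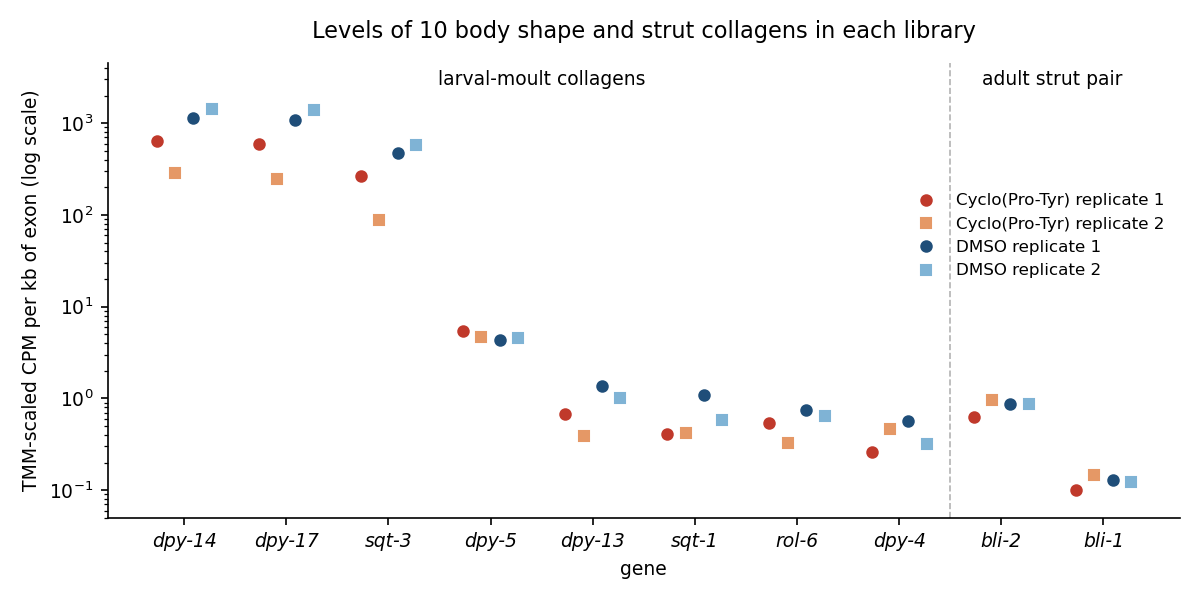
Level of each of the 10 collagens in each library, in TMM-scaled CPM per kb of exon on a log axis, with the Cyclo(Pro-Tyr) libraries left of the DMSO libraries. The genes *dpy-14*, *dpy-17* and *sqt-3* lie between 88.5 and 1444 CPM per kb, and the other 7 genes do not pass 5.49 CPM per kb.

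The *dpy-14* gene (CELE_H27M09.4), a collagen of the late embryo and L1, had 679 and 304 CPM in Cyclo(Pro-Tyr) replicates 1 and 2, against 1211 and 1521 CPM in DMSO replicates 1 and 2. Both treated libraries lay below both DMSO libraries, and the second treated library lay at 0.448 of the first. The log2 fold change of Cyclo(Pro-Tyr) over DMSO was -1.47 ± 0.34 (standard error, as after ± for all log2 fold changes), which is a 2.78-fold lower level. By edgeR's quasi-likelihood test its adjusted p was 0.0604, above the threshold of 0.05.

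The *dpy-17* gene (CELE_F54D8.1), whose product is needed for SQT-3 to leave the cell, had 657 and 273 CPM in the Cyclo(Pro-Tyr) libraries, against 1211 and 1532 CPM in the DMSO libraries. The groups did not overlap, and Cyclo(Pro-Tyr) replicate 2 was again the lowest, at 0.416 of replicate 1. On the log2 scale the gene differed by -1.56 ± 0.36 (edgeR adjusted p 0.0619).

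The *sqt-3* gene (CELE_F23H12.4), which embryos need to keep their elongated shape, had 382 and 126 CPM in the Cyclo(Pro-Tyr) libraries, against 676 and 818 CPM in the DMSO libraries. The groups did not overlap, and the treated libraries were further apart than for any other of the 10 genes, with replicate 2 at 0.330 of replicate 1. The log2 ratio between groups was -1.56 ± 0.43, at 0.0783 for the adjusted p by edgeR. An annotated non-coding RNA overlaps *sqt-3* on the opposite strand, so its counts carry that uncertainty.

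The size of these differences depended on the treated library used. Without Cyclo(Pro-Tyr) replicate 1 the log2 fold changes of *dpy-14*, *dpy-17* and *sqt-3* were -2.17, -2.33 and -2.57. Without Cyclo(Pro-Tyr) replicate 2 they were -1.004, -1.06 and -0.96. With DMSO replicate 1 left out the values were -1.63, -1.72 and -1.68, and with DMSO replicate 2 left out they were -1.30, -1.38 and -1.41. Each of these fits leaves 1 library alone in its group, and that library is assumed to vary like the other group. Only effect sizes are therefore given here. The sign was negative in each of these fits.

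The summed level of these 3 genes was 1717 and 704 CPM in Cyclo(Pro-Tyr) replicates 1 and 2, against 3098 and 3870 CPM in DMSO replicates 1 and 2. Within a library their proportions varied less than that. Per kb, the ratio of *dpy-17* to *dpy-14* was 0.917 and 0.852 in Cyclo(Pro-Tyr), against 0.947 and 0.955 in DMSO. The ratio of *sqt-3* to *dpy-14* was 0.416 and 0.306 in Cyclo(Pro-Tyr), against 0.413 and 0.398 in DMSO. The lowest value of both ratios was that of Cyclo(Pro-Tyr) replicate 2, the library with the least of all 3 messages, while Cyclo(Pro-Tyr) replicate 1 matched the DMSO libraries closely for *sqt-3*. These ratios are descriptions, since 2 libraries against 2 cannot give an exact two-sided permutation p below 0.333.

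The 5 collagens of later moults were present at a few CPM or less. The *dpy-5* gene (CELE_F27C1.8), a collagen needed for normal body length, was the most abundant of them per kb, with 4.69 and 3.97 CPM in Cyclo(Pro-Tyr), against 3.68 and 3.93 CPM in DMSO. Both treated libraries lay above both DMSO libraries, by a margin of hundredths of a CPM between the nearest ones. Its log2 ratio of 0.20 ± 0.18 was the only one of the 10 above 0 (edgeR adjusted p 0.523). Per kb, *sqt-3*, the least abundant of the 3 early collagens, exceeded *dpy-5* by 48.9-fold and 19.1-fold in the Cyclo(Pro-Tyr) libraries and by 111-fold and 125-fold in the DMSO libraries.

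The *dpy-13* gene (CELE_F30B5.1), another collagen of body length, had 0.676 and 0.384 CPM in Cyclo(Pro-Tyr), against 1.34 and 0.993 CPM in DMSO, with no overlap between groups. This is a log2 difference of -1.10 ± 0.36 (adjusted p 0.109, edgeR). Its log2 ratio was -1.61 without Cyclo(Pro-Tyr) replicate 1, from 15 counts in the remaining treated library, and -0.80 without Cyclo(Pro-Tyr) replicate 2.

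The collagens SQT-1 and ROL-6 are linked by genetics, since the roller phenotype of *rol-6* mutants needs SQT-1. The *sqt-1* gene (CELE_B0491.2) had 0.432 and 0.435 CPM in Cyclo(Pro-Tyr), against 1.13 and 0.601 CPM in DMSO. The *rol-6* gene (CELE_T01B7.7), the usual visible marker of worm transformation, had 0.582 and 0.359 CPM in Cyclo(Pro-Tyr), against 0.817 and 0.693 CPM in DMSO. Neither gene's groups overlapped, and for *sqt-1* DMSO replicate 1 stood well above the other 3 libraries. The log2 fold changes were -1.02 and -0.65 with standard errors of 0.41 and 0.37, and the edgeR adjusted p were 0.164 and 0.291. For *sqt-1* the log2 ratio was -0.47 when DMSO replicate 1 was left out and -1.38 when it was DMSO replicate 2. For *rol-6* it was -1.08 when Cyclo(Pro-Tyr) replicate 1 was left out and -0.38 when it was Cyclo(Pro-Tyr) replicate 2, and neither gene passed in any fit with 1 library left out. The *dpy-4* gene (CELE_Y41E3.2) had 0.263 and 0.461 CPM in Cyclo(Pro-Tyr), against 0.564 and 0.323 CPM in DMSO, so its groups overlapped. The log2 ratio between groups was -0.37 ± 0.48, at 0.655 for the adjusted p by edgeR.

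The strut collagens had few counts in both groups. The *bli-1* gene (CELE_C09G5.6) had 16 and 17 counts in the Cyclo(Pro-Tyr) libraries, against 20 and 16 counts in the DMSO libraries, which is 0.300 and 0.435 CPM against 0.389 and 0.370 CPM. The *bli-2* gene (CELE_F59E12.12) had 33 and 37 counts in the Cyclo(Pro-Tyr) libraries, against 45 and 37 counts in the DMSO libraries, which is 0.620 and 0.948 CPM against 0.875 and 0.855 CPM. The groups overlapped for both genes, and the DMSO values lay inside the range of the treated ones. For a count of 16 the exact Poisson 95% interval runs from 9.15 to 26.0 counts, and it covers counting error only. The log2 fold changes were -0.08 for *bli-1* and -0.18 for *bli-2*, with standard errors of 0.42 and 0.33 and edgeR adjusted p of 0.921 and 0.764. Their 95% intervals ran from -1.05 to 0.89 and from -0.94 to 0.59, so changes of up to about 2-fold in *bli-1* were not excluded. Per kb, *bli-1* was the lowest of the 10 genes in every library, and *bli-2* exceeded it by 6.25-fold and 6.59-fold in Cyclo(Pro-Tyr) and by 6.81-fold and 7.003-fold in DMSO. Exons of *bli-1* and *dph-2*, on the opposite strand, overlap by 7 bases in the annotation.

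The order of levels per kb in DMSO below the 3 early collagens was *dpy-5*, *dpy-13*, *bli-2*, *sqt-1*, *rol-6*, *dpy-4* and *bli-1*. In Cyclo(Pro-Tyr) *bli-2* stood above *dpy-13*, and *rol-6* above *sqt-1*. Of these neighbours, *dpy-5* and the gene below it, and *bli-1* and the gene above it, had separate values in both groups. In DMSO *dpy-13* and *bli-2*, and *rol-6* and *dpy-4*, were separate too, and all other neighbours overlapped. The order was the same with coding length in place of exon length in both groups.

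**Figure D2:**
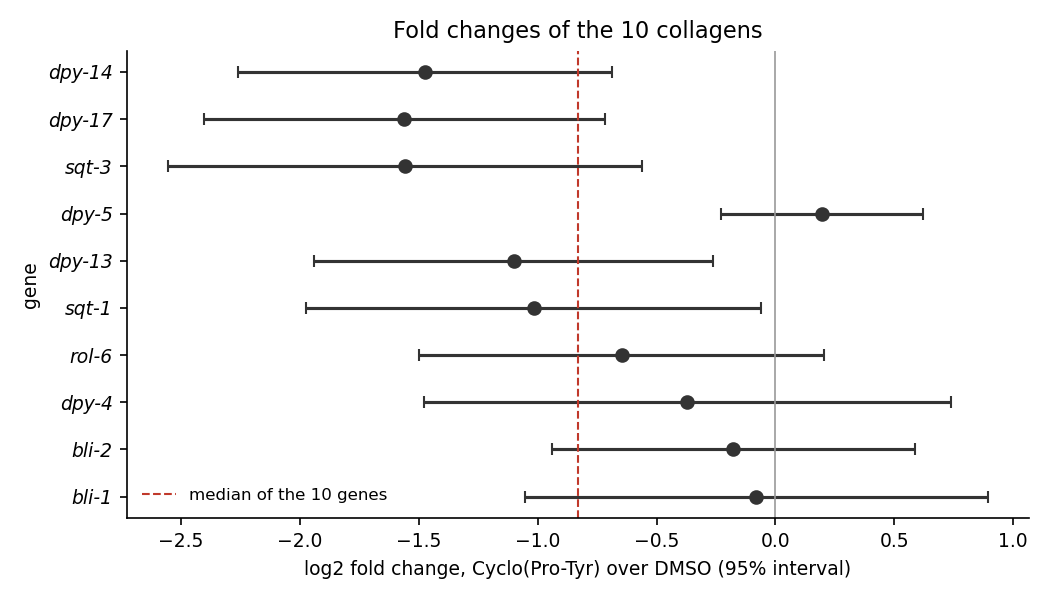
Log2 fold change of Cyclo(Pro-Tyr) over DMSO for the 10 collagens with its 95% interval from the edgeR fit, ordered as in the plot of levels, with the median of the 10 genes dashed. The intervals of *dpy-14*, *dpy-17*, *sqt-3*, *dpy-13* and *sqt-1* end below 0, and those of the other 5 genes include it.

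Over the 10 genes, 9 log2 fold changes were below 0, as were 50.3% of those of all tested genes, and 1 was above it, with a median of -0.83, against a median of -0.0032 over all 19439 tested genes. All 10 genes passed the filter on low counts. At an adjusted p below 0.05 by edgeR, 0 of the 10 genes were called, where 2.05% of all tested genes were, 1.33% as lower and 0.715% as higher. At an unadjusted p below 0.05 there were 5 of the 10, where 27.3% of all tested genes were. All 5 had lower levels in Cyclo(Pro-Tyr), where 14.3% of all tested genes were lower at that p. DESeq2's Wald test called 0 of the 10 as well. It left the adjusted p of 6 genes undefined and gave 4 an unadjusted p below 0.05. Both treated libraries lay below both DMSO libraries for 6 of the 10 genes, where 30.8% of all tested genes did so, and above them for 1, where 29.6% did so. With upper-quartile scaling *dpy-14* and *dpy-17* passed the threshold in edgeR, the smaller adjusted p being 0.0474. Over the planned edgeR fits to all 4 libraries, the smallest adjusted p of a member ranged from 0.0474 to 0.0894.

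The larval and adult types were then set side by side. The 8 collagens of larval cuticles ranged from -1.56 to 0.20 in log2 fold change around a median of -1.06, the strut pair had a median of -0.13, and the difference was 0.93. Leaving out Cyclo(Pro-Tyr) replicate 1 made it 1.505, and leaving out Cyclo(Pro-Tyr) replicate 2 made it 0.47. The summed level of *bli-1* and *bli-2* was 0.920 and 1.38 CPM in Cyclo(Pro-Tyr), against 1.26 and 1.22 CPM in DMSO. The next ratios are of summed counts and are not corrected for exon length. For each count in the strut pair, the 3 early collagens had 1867 and 509 counts in Cyclo(Pro-Tyr), against 2450 and 3161 counts in DMSO. The log2 ratio of the strut pair to the 3 early collagens averaged -9.93 ± 1.33 in Cyclo(Pro-Tyr) and -11.44 ± 0.26 in DMSO (SD), a difference of 1.51. Both treated libraries had the higher ratio, but their own spread was nearly as large as the difference, and the intervals of the strut pair overlap those of the early collagens. A difference in response between larval and adult types is therefore not shown.

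**Figure D3:**
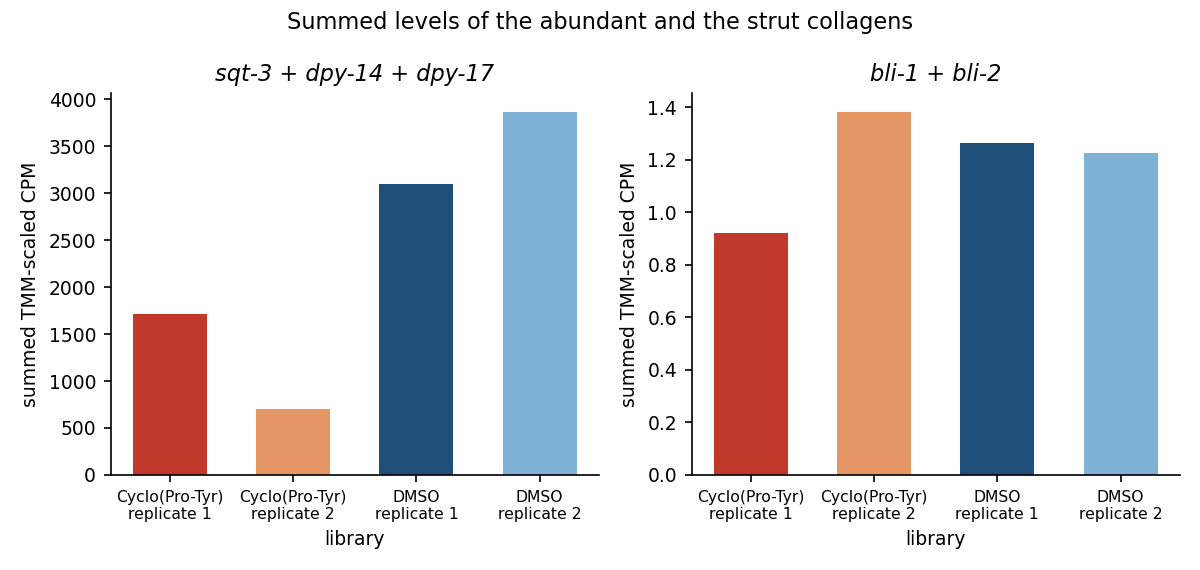
Summed TMM-scaled CPM in each library for *sqt-3*, *dpy-14* and *dpy-17* on the left and for *bli-1* and *bli-2* on the right, on linear axes of different scale that start at 0. Both Cyclo(Pro-Tyr) bars (1717 and 704 CPM) are below the DMSO bars on the left, and the groups overlap on the right, where each bar rests on 49 to 65 counts.

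Among the 164 tested collagens, which include the 10, 137 log2 fold changes were below 0, the median was -0.65, 79 were lower at an unadjusted p below 0.05 by edgeR and both treated libraries lay lowest for 106. The threshold was passed by 8, all lower and all among the 144 numbered *col* genes, of which 118 were below 0 around a median of -0.62. Over all tested genes, 50.3% were below 0 and 14.3% were lower at that unadjusted p. Both treated libraries lay lowest for 30.8% of all tested genes, and 1.33% passed the threshold as lower. Of the numbered collagens, 5 of known stage were examined. The adult-specific collagen gene *col-19* had 0.958 and 0.461 CPM in Cyclo(Pro-Tyr), against 0.350 and 0.739 CPM in DMSO. The *col-62* gene had 1.22 and 1.54 CPM in Cyclo(Pro-Tyr), against 0.778 and 1.13 CPM in DMSO, with a log2 ratio of 0.53 (edgeR adjusted p 0.295). Of *col-7*, *col-19* and *col-62*, 0 passed the threshold and 0 had an unadjusted p below 0.05, where 2.05% and 27.3% of all tested genes did. Their median log2 fold change was 0.47. Of the larval collagens *col-10* and *col-17*, *col-10* had 351 and 173 CPM in Cyclo(Pro-Tyr), against 619 and 514 CPM in DMSO, with no overlap. On the log2 scale the gene differed by -1.11 ± 0.29 (edgeR adjusted p 0.0727). The value was -1.71 when Cyclo(Pro-Tyr) replicate 1 was left out and -0.69 when it was Cyclo(Pro-Tyr) replicate 2. The *col-17* gene, at 0.150 and 0.128 CPM in Cyclo(Pro-Tyr) and 0.545 and 0.277 CPM in DMSO, had a log2 ratio of -1.56 (edgeR adjusted p 0.130).

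The 6 annular furrow collagens, whose loss also makes worms dumpy, all had lower levels in both treated libraries, where 30.8% of all tested genes did, and their median log2 fold change was -1.23. None passed the threshold in edgeR, where 2.05% of all tested genes did, and 4 had an unadjusted p below 0.05 and lower levels, where 14.3% did. In *dpy-10* the level was 72.5 and 31.5 CPM in Cyclo(Pro-Tyr), against 113 and 141 CPM in DMSO, with a log2 ratio of -1.29 (edgeR adjusted p 0.0702). An annotated gene on the same strand overlaps 780 bases of its exons. In *dpy-3* it was 28.6 and 9.17 CPM in Cyclo(Pro-Tyr), against 49.7 and 62.4 CPM in DMSO, with a log2 ratio of -1.56 (edgeR adjusted p 0.0767). As with the early collagens, Cyclo(Pro-Tyr) replicate 2 was the lowest library for both genes. Leaving out Cyclo(Pro-Tyr) replicate 1 gave -2.01 for *dpy-10* and -2.61 for *dpy-3*, and leaving out Cyclo(Pro-Tyr) replicate 2 gave -0.81 and -0.97. Of 5 other body shape collagens, *rol-1* was too low to test, and none of the 4 tested had an unadjusted p below 0.05, where 27.3% of all tested genes did. Their median log2 fold change was -0.47, and *lon-3*, whose loss makes worms long, and *bli-6*, another blister collagen, gave -0.79 and -0.55.

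Enzymes that prepare collagen chains inside the cell were lowest in Cyclo(Pro-Tyr) replicate 2. All 8 genes for prolyl hydroxylation and folding had lower levels in both treated libraries, where 30.8% of all tested genes did, with a median of -0.77 on the log2 scale. All 8 had an unadjusted p below 0.05 by edgeR, where 14.3% of all tested genes were lower at that p, and 0 passed at the adjusted level, where 2.05% did. In *pdi-2*, the shared subunit of the prolyl 4-hydroxylases, the level was 511 and 347 CPM in Cyclo(Pro-Tyr), against 648 and 749.6 CPM in DMSO, a log2 ratio of -0.70 ± 0.20 (edgeR adjusted p 0.0801). In *fkb-3*, a peptidyl-prolyl isomerase of the endoplasmic reticulum, it was 37.5 and 26.8 CPM in Cyclo(Pro-Tyr), against 50.1 and 55.2 CPM in DMSO, a log2 ratio of -0.71 ± 0.16 (edgeR adjusted p 0.0604).

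Genes for cleavage and cross-linking had medians closer to 0. The 4 genes of cleavage had a median of -0.18 on the log2 scale, and 0 of them had an unadjusted p below 0.05, where 27.3% of all tested genes did. The *dpy-31* gene, the astacin protease that cuts SQT-3, had 69.8 and 69.4 CPM in Cyclo(Pro-Tyr), against 70.0 and 81.8 CPM in DMSO. The log2 ratio was -0.12 with a 95% interval from -0.39 to 0.14. The protease inhibitor gene *bli-5* had 1.33 and 0.999 CPM in Cyclo(Pro-Tyr), against 1.52 and 1.32 CPM in DMSO, with overlapping groups. Among 5 genes of tyrosine cross-linking the median was 0.25, with 0 at an unadjusted p below 0.05, against the same 27.3%. The peroxidase gene *mlt-7* had 192 and 205 CPM in Cyclo(Pro-Tyr), against 166 and 169 CPM in DMSO, and the tetraspanin gene *tsp-15*, a partner of the dual oxidase BLI-3, had 41.8 and 49.2 CPM in Cyclo(Pro-Tyr), against 38.4 and 36.9 CPM in DMSO. Both were higher in both treated libraries, where 29.6% of all tested genes were, with log2 ratios of 0.25 (edgeR adjusted p 0.186) and 0.27 (adjusted p 0.185).

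Of 11 transcription factors and bone morphogenetic protein (BMP) pathway genes that act on epidermal collagen genes, 4 log2 fold changes were below 0 and 7 above it. None passed the threshold in edgeR, where 2.05% of all tested genes did. At an unadjusted p below 0.05 there were 2 lower and 3 higher, where 27.3% of all tested genes had such a p in either direction. Of the 19439 tested genes, 2779 (14.3%) were lower and 2522 were higher at that p. The Smad gene *sma-2* had 55.8 and 64.6 CPM in Cyclo(Pro-Tyr), against 45.6 and 35.2 CPM in DMSO, with a log2 ratio of 0.58 (edgeR adjusted p 0.0702). Its exons overlap *aak-1* and *ugtp-1* on the opposite strand. The *lin-29* gene, which drives adult collagen genes at the last moult, had 3.25 and 3.59 CPM in Cyclo(Pro-Tyr), against 2.43 and 1.48 CPM in DMSO, with a log2 ratio of 0.79 (edgeR adjusted p 0.112). The *lin-42* gene, the worm relative of Period that times moults, was named after its values were seen. It had 8.32 and 2.13 CPM in Cyclo(Pro-Tyr), against 13.1 and 11.6 CPM in DMSO, with Cyclo(Pro-Tyr) replicate 2 the lowest as for *sqt-3* and an edgeR adjusted p of 0.148. Of the other listed regulators, *nhr-23* and *blmp-1* had log2 ratios of -0.51 (edgeR adjusted p 0.166) and -0.33 (adjusted p 0.411). The ratio of *nhr-25* was 0.29 (edgeR adjusted p 0.185), with higher levels in both treated libraries, where 29.6% of all tested genes had them.

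**Figure D4:**
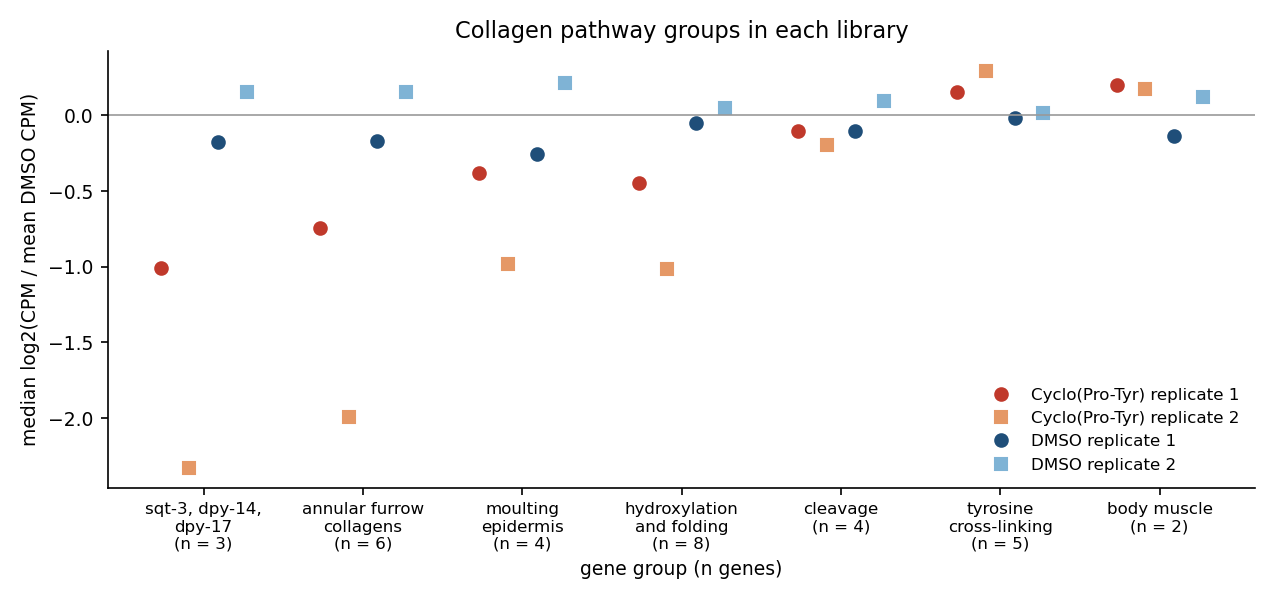
Median over genes of log2 CPM relative to the mean of the DMSO libraries, for each library, in the 3 early collagens and in lists of furrow collagens, moulting epidermis, hydroxylation and folding, cleavage, tyrosine cross-linking and body muscle. Cyclo(Pro-Tyr) replicates 1 and 2 lie at -1.01 and -2.33 for the early collagens and at -0.75 and -1.99 for the furrow collagens, against 0.15 and 0.29 for cross-linking.

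Markers of the moulting epidermis were, in sum, also lowest in Cyclo(Pro-Tyr) replicate 2 and highest in DMSO replicate 2. Of *mlt-10*, *nas-37*, *noah-1* and *nekl-2*, 3 had lower and 1 a higher mean level in Cyclo(Pro-Tyr), and their summed level was 225 and 102 CPM in Cyclo(Pro-Tyr), against 261 and 380 CPM in DMSO. The moulting gene *mlt-10* had 53.7 and 22.0 CPM in Cyclo(Pro-Tyr), against 79.3 and 108 CPM in DMSO. The *noah-1* gene, for a protein of the embryonic apical matrix, had 154 and 61.7 CPM in Cyclo(Pro-Tyr), against 166 and 256 CPM in DMSO. It made up most of the sum in every library. The pattern of the sum was not that of *nekl-2* or *nas-37*. The *nekl-2* gene was higher in both treated libraries, with a log2 ratio of 0.25. For *nas-37* the groups overlapped, with a log2 ratio of -0.24, and the lowest level was 1.54 CPM in Cyclo(Pro-Tyr) replicate 1. The part of a difference in moulting stage between libraries in the collagen values was not tested.

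In libraries of whole worms, fewer cells of a type and less RNA per cell cannot be told apart. Of the 5 epidermis markers, *grd-3*, *wrt-2*, *elt-3*, *dpy-7* and *lin-26*, 4 had a lower and 1 a higher mean level in Cyclo(Pro-Tyr), and their sum was 228 and 152 CPM in Cyclo(Pro-Tyr), against 273 and 314 CPM in DMSO. The lower ones include *lin-26*, which lay close to 0. The hedgehog-related gene *grd-3* passed the threshold, with a log2 ratio of -0.97 (edgeR adjusted p 0.0346). Without DMSO replicate 1 or 2 it did not pass, at log2 ratios of -0.82 and -1.11, but those fits called hardly any gene. The furrow collagen gene *dpy-7*, which is in both lists, had 52.3 and 19.4 CPM in Cyclo(Pro-Tyr), against 83.3 and 103 CPM in DMSO, with a log2 ratio of -1.37 ± 0.38 (edgeR adjusted p 0.0792). The ratio was -2.26 when Cyclo(Pro-Tyr) replicate 1 was left out and -0.82 when it was Cyclo(Pro-Tyr) replicate 2. The hedgehog-related gene *wrt-2* had 52.5 and 28.0 CPM in Cyclo(Pro-Tyr), against 65.5 and 93.1 CPM in DMSO, with a log2 ratio of -0.97 ± 0.28 (edgeR adjusted p 0.0856). The epidermal fate regulators *lin-26* and *elt-3* had log2 ratios of -0.02 (edgeR adjusted p 0.941) and 0.14 (adjusted p 0.422). Levels of *lin-26* were 64.1 and 48.2 CPM in Cyclo(Pro-Tyr), against 56.7 and 57.2 CPM in DMSO. The body muscle myosin genes *unc-54* and *myo-3* summed to 7366 and 6990 CPM in Cyclo(Pro-Tyr), against 5426 and 6595 CPM in DMSO. Their log2 ratios were 0.28 (edgeR adjusted p 0.477) and 0.09 (adjusted p 0.744), and the groups overlapped for *myo-3*. The intestine markers *elt-2* and *ges-1* summed to 116 and 141 CPM in Cyclo(Pro-Tyr), against 98.7 and 88.7 CPM in DMSO. The groups overlapped for *elt-2*, with a log2 ratio of 0.05 (edgeR adjusted p 0.791). For *ges-1* the levels were 75.7 and 104 CPM in Cyclo(Pro-Tyr), against 60.9 and 51.8 CPM in DMSO, a log2 ratio of 0.67 (edgeR adjusted p 0.0668).

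Markers of adults had low levels in all libraries. The adult markers *vit-2*, *vit-5*, *vit-6* and *col-19* summed to 4.67 and 5.12 CPM in Cyclo(Pro-Tyr), against 4.80 and 5.94 CPM in DMSO. The yolk protein genes *vit-2* and *vit-6* had fold changes of opposite sign, with log2 ratios of -1.14 (edgeR adjusted p 0.0580) and 0.86 (adjusted p 0.157). The 4 sperm markers summed to 1.82 and 1.84 CPM in Cyclo(Pro-Tyr), against 2.12 and 1.92 CPM in DMSO, and *msp-19* had 0 counts in all libraries but DMSO replicate 1. Of these, *msp-31* and *spe-11* had log2 ratios of -0.37 (edgeR adjusted p 0.567) and -0.07 (adjusted p 0.872), the first uncertain because near-identical *msp* copies can share reads. The oocyte and embryo markers *puf-5*, *rme-2*, *cbd-1* and *egg-1* summed to 27.2 and 28.1 CPM in Cyclo(Pro-Tyr), against 29.1 and 30.97 CPM in DMSO. Of these, *puf-5* and *cbd-1* had log2 ratios of -0.37 (edgeR adjusted p 0.277) and -0.22 (adjusted p 0.344). The ratio of *egg-1* was -0.23 (edgeR adjusted p 0.452), and that of *rme-2* had the opposite sign, at 0.12 (adjusted p 0.596).

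Library totals ran from 40240674 to 52987317 counts, and a count of 3 equalled 0.0566 to 0.0746 CPM before TMM scaling. Every member was above that level in every library. Replicates differed by more than sampling noise, as the chi-square per degree of freedom over genes was 33.9 for the Cyclo(Pro-Tyr) pair and 23.5 for the DMSO pair.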

How the data were processed

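RNA of whole N2 worms was sequenced as single-end reads on a NextSeq550 from a stranded total RNA kit, per the labels' protocols, which give 19 °C for the incubation where the series text gives 20 °C. The deposited table holds raw counts of reads per gene with no normalisation by the authors. Bowtie2 and SAMtools are named, with no role, per the submitters' processing notes. No source used here gives the genome build, the counting tool or its use of strand. Groups follow the sample titles. The treatment label of Cyclo(Pro-Tyr) replicate 2 also reads replicate 1, and the title was followed. Count columns were matched to libraries by treatment and replicate number, and 0 columns were left unused.

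Of 21895 locus tags, 21890 matched the RefSeq table of WBcel235, which supplied the symbols. Exon lengths and overlaps came from Ensembl release 115 for that assembly and serve only as descriptions. No coordinates are given, since no source names the build used for counting.

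All genes were fitted together with edgeR 4.0.16 in R 4.3.3 (quasi-likelihood test, TMM scaling, filterByExpr, treatment as the only term). The filter left out 2456 genes, and p-values were adjusted over the 19439 tested genes with Benjamini-Hochberg's procedure and called at 0.05. Standard errors of log2 fold changes were derived from the F statistics, and 95% intervals use the same fit. CPM values are TMM-scaled. The fit was tested on simulated data. Alternatives were other scalings and filters, DESeq2 1.42.0, a replicate block and each library left out. Figures were drawn with matplotlib 3.10.9.

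The members and lists were chosen with earlier results of these data known. Besides the 10 members, each list contributed by rule the genes past the threshold and the 2 with the smallest p, and stage and tissue markers were given mainly as summed levels. Genes printed outside that rule were chosen after their values were seen.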

Additional observations from a re-analysis of the deposited data

How the results depend on the processing

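Of the 10 collagens, 0 passed the threshold in the report, and 0 did so with DESeq2 size factors, total counts, no filter, the filter of 5 CPM in 2 libraries (which left 3 of them), DESeq2's Wald test and the replicate block. Upper-quartile scaling called 2 (*dpy-14* and *dpy-17*). Leaving out single libraries gave 0 to 4 called members, with 4 when Cyclo(Pro-Tyr) replicate 1 was left out, 3 when it was Cyclo(Pro-Tyr) replicate 2, and 0 when it was either DMSO library. Over all genes the 398 calls became 842 with upper-quartile scaling, 215 with total counts, 0 with the filter of 5 CPM and 1789 with DESeq2's Wald test, and 0 (without DMSO replicate 1) to 4299 (without Cyclo(Pro-Tyr) replicate 1) with 1 library left out. The 8 companion lists are the furrow, other body shape, adult and larval collagens, hydroxylation and folding, cleavage, cross-linking and the regulators, without the marker lists that hold *grd-3*. Their calls, 0 in the report, were 1 with upper-quartile scaling (*fkb-3*), 4 with DESeq2's Wald test and 0 to 19 with 1 library left out. In a fit without 1 library the lone library of its group is assumed to vary like the other group. What causes these shifts was not tested.

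The replicate block gave 221 calls over all genes, 0 members and 1 companion gene (*col-10*). The labels say only that replicates share a number, and deviations of the libraries numbered 1 correlated at -0.202 across genes. A crossed replicate block, added after the data were seen, gave 4581 calls over all genes, 3 members and 19 companion genes.

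The median log2 fold change of the 10 members ranged from -1.04 to -0.49 with 1 library left out, the weakest without DMSO replicate 1, and moved by less than the spread between libraries otherwise. The difference between the strut pair and the other members was 0.47 to 1.505 in those fits. Neither could be computed under the filter of 5 CPM, which removes 7 members. With 1 library left out the sign turned for *dpy-4* (-0.77 to 0.11), *bli-1* (-0.33 to 0.20), *bli-2* (-0.48 to 0.13), *col-19* (-0.20 to 1.06), *spe-11* (-0.14 to 0.0035), *myo-3* (-0.020 to 0.20) and *elt-2* (-0.022 to 0.12). The call of *grd-3* was lost without DMSO replicate 1 or 2, at log2 ratios of -0.82 and -1.11, and under the filter of 5 CPM, at -0.98. Hardly any gene was called in those fits, so the loss says little about *grd-3*. Counts of 14 to 69 behind 6 of the members limit what could be detected in them.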
